A study of Mus musculus with 3 samples.

Results

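The 10 genes described here are the core of the circadian clock, and they were taken by name from the gene tables: Per1, Per2, Per3, Cry1, Cry2, Arntl, Clock, Nr1d1, Nr1d2 and Dbp. Each name matched 1 row, so 10 of the 55536 annotated genes are members. RNA was polyA-selected from mouse regulatory T cells that the labels describe as inflammation-experienced, primary cells of a male adult of 16 weeks. The strain is written Foxp3GFP-DTRCD4CreERT2R26tdTomato, a name that carries GFP and the diphtheria toxin receptor at Foxp3, a Cre recombinase that tamoxifen activates under Cd4, and a tdTomato reporter at the R26 locus. The labels give no tissue beyond the whole organism, and neither a treatment nor a time of day was found in the labels used here. The 3 libraries form 1 group and are technical replicates 1, 2 and 3 of 1 biological replicate, so each SD below is a spread between libraries with n = 3 and says nothing of variation between animals.

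The clock is a feedback loop of transcription that most mammalian cells run. The proteins of Clock and Arntl (the gene of BMAL1) bind DNA together at E-box elements and switch on the Per and Cry genes, whose proteins return to the nucleus and repress that pair. The same activators switch on Nr1d1 and Nr1d2, the genes of the nuclear receptors REV-ERB alpha and beta, which repress Arntl through elements called RORE that the activating ROR receptors also bind. Dbp is an output of the loop and encodes a factor that acts at D-box elements. In lymphocytes, as in liver, transcripts of most of these genes are known to rise and fall over the day, so a level from 1 sampling is that of 1 unknown phase.

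Elements of these kinds were searched as short words in the promoters of the 10 genes. The windows below run from 250 bases before to 50 bases after an annotated start (RefSeq, GRCm38.p6), are written 5′ to 3′ on the strand of the gene, and are shown because they hold such words. Capitals mark the words found, on either strand. Per1 (chr11:69098699-69098998, plus strand) has an E-box beginning 166 bases before the start and a D-box 24 bases before it, and Per3 (chr4:151044616-151044915, minus strand) has D-boxes 205 and 158 bases before the start. Cry1 (chr10:85185005-85185304, minus strand) has an E-box 60 bases before the start and an E-box variant 79 bases before it. Arntl (chr7:113207261-113207560, plus strand) has a RORE core 30 bases after the start.
Per1: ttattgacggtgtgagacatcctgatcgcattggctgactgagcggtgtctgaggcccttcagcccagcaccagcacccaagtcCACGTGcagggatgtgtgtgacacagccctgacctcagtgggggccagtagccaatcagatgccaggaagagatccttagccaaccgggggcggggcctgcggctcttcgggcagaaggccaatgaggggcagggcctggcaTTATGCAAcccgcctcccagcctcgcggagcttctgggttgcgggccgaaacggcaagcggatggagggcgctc
Per3: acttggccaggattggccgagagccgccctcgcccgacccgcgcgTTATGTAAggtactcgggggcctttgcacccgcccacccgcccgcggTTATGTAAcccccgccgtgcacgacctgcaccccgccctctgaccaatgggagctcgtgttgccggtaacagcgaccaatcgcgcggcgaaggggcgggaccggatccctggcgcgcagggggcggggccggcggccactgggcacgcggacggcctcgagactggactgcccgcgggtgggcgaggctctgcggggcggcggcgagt
Cry1: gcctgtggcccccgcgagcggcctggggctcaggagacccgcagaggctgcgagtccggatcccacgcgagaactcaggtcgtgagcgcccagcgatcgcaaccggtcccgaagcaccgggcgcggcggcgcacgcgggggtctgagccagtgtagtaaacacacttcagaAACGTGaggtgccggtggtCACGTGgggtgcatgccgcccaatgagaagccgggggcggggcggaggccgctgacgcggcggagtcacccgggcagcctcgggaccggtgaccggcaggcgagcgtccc
Arntl: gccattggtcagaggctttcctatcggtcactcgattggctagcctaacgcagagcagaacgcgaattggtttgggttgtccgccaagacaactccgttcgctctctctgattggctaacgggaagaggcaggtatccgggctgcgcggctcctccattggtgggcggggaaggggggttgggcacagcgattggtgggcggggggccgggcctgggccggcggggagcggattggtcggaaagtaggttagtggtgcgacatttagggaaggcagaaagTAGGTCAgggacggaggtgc

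The words searched on both strands were CACGTG for the E-box, CACGTT for its variant, TAGGTCA for the RORE core, and TTATGTAA or TTATGCAA for the D-box. No word overlapped another in these windows. Of the 32851 promoter windows of that length in the table, 7.15% hold the E-box, 4.68% the variant, 2.61% the RORE core and 1.66% the D-box. The table holds 13 windows for 9 of the clock genes, all but Per2. The E-box was found in 2 of these genes (Per1 and Cry1), the variant in 3 (Cry1, Cry2 and Nr1d1), the D-box in 2 (Per1 and Per3) and the RORE core in 1 (Arntl). By window, as the shares above are counted, these were 2, 3, 2 and 1 of the 13, in the same order. A match is a string of letters in a short window and was not tied to any value below.

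The libraries held 20942875, 18402479 and 17494966 expected counts on annotated genes, and 3 counts on a transcript of 1 kilobase stood for 0.242 to 0.264 TPM. Library 3 stood apart from the others: the coefficient of variation beyond counting, from edgeR's common dispersion over all genes, was 0.133 between libraries 1 and 2, 0.339 between 1 and 3 and 0.321 between 2 and 3. The cells carried the markers of their label. All 6 regulatory T cell genes on the marker list reached 1 TPM in each library, with Foxp3 at 74.4 ± 13.8 TPM, and their summed level was 2760, 2229 and 2314 TPM. Erythroid genes, 5 of 6 detected, summed to 1390, 1097 and 1751 TPM, B cell genes, 4 of 5 detected, to 67.5 to 78.3 TPM and macrophage genes, 4 of 4 detected, to 27.1 to 37.9 TPM. Stromal genes, 2 of 4 detected, summed to 98.7 to 116 TPM, mostly Pecam1 at 104 ± 10.2 TPM, and CD8 genes, 1 of 2 detected, to 16.7 to 22.3 TPM. Natural killer and dendritic genes summed to at most 5.11 and 2.75 TPM, and granulocyte genes were listed at 0 in libraries 1 and 3. Erythroid genes were highest in library 3, and their part in the results below was not tested.

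TPM counts transcripts per gene after division by length and by depth, and all 10 genes reached 1 TPM in every library, against 47.4% of the 22028 protein-coding genes. Their mean levels ran from 1.68 to 21.03 TPM with a median of 10.3 TPM. The median of the 10436 protein-coding genes detected in that way was 25.9 TPM, so the clock genes were present at low to moderate level. With FPKM in place of TPM, 8 of the 10 clock genes were detected. By mean TPM the order was Arntl, Clock, Nr1d2, Dbp, Cry2, Per1, Nr1d1, Cry1, Per2 and Per3. None of the 9 steps between neighbours in that order exceeded the spread between libraries, a step counting when the log2 ratio of TPM + 1 had the same sign in each library and exceeded 2 SD. With library 3 left out 3 steps did so, and with library 1 or 2 left out 1 did. In bulk RNA, fewer cells that express a gene and less of its RNA per cell cannot be told apart.

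**Figure D1:**
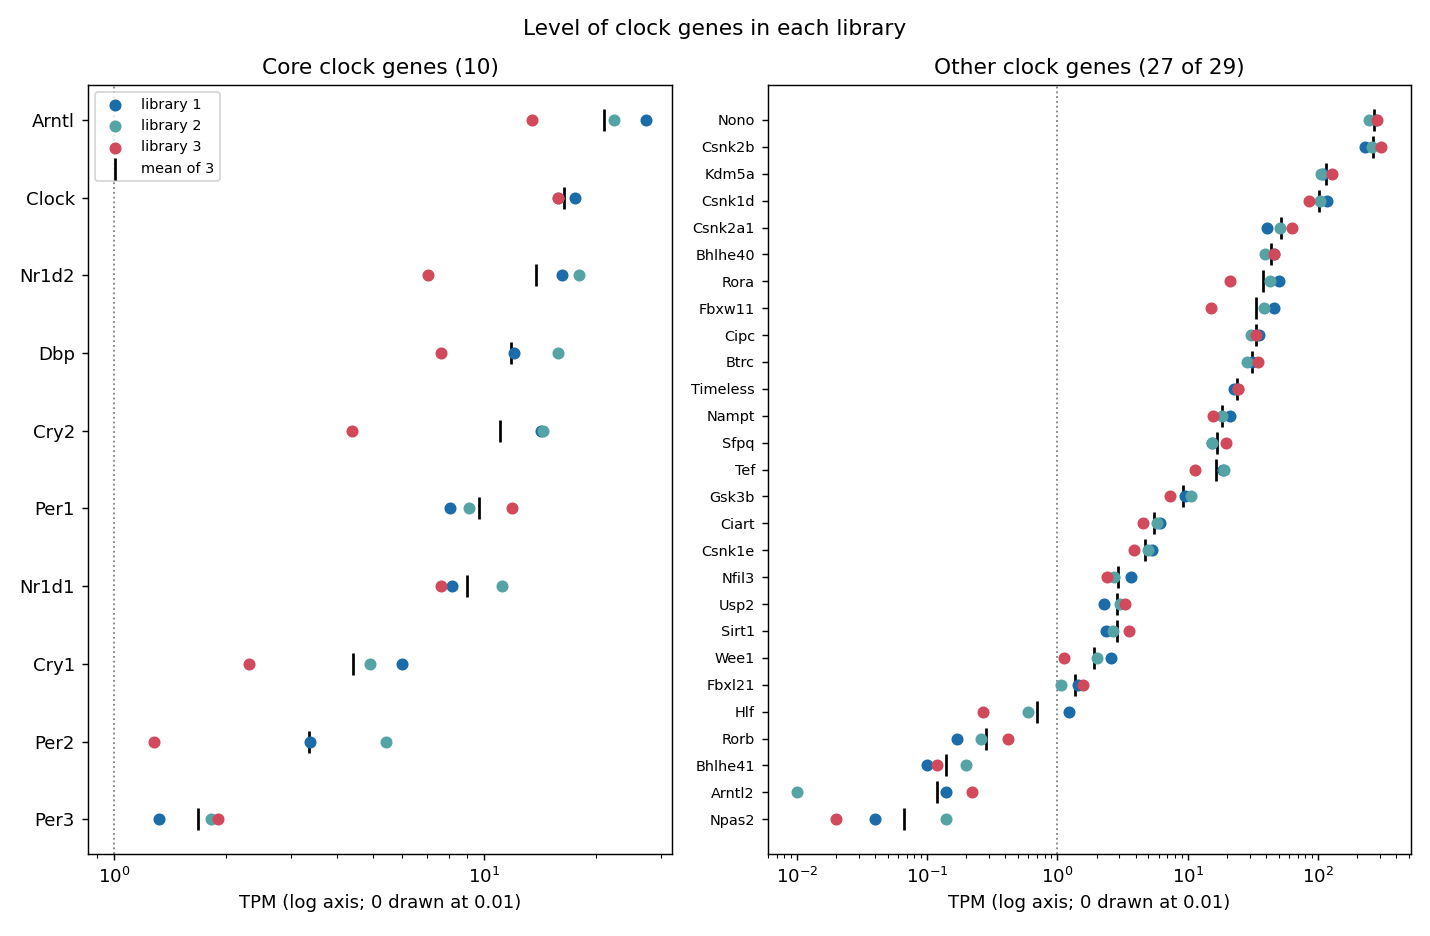
TPM on a log axis of the 10 core clock genes (left) and of 27 of the 29 other clock genes (right), ordered by mean, with 1 point for each library, a black tick for the mean and a dotted line at 1 TPM. All 10 core genes lie to the right of 1 TPM, and Arntl2, Npas2, Bhlhe41, Rorb and Hlf do not in at least 1 library.

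By mean TPM the activator genes stood at the top. In library 2, Nr1d2 at 18.0 TPM lay above Clock, and without library 3 the order began with Arntl, Nr1d2 and Clock. Arntl (chromosome 7, 113207465 to 113314126, plus strand, mm10) gave 27.3, 22.4 and 13.5 TPM in libraries 1, 2 and 3, with a mean of 21.03 ± 6.99 TPM, rank 5833 among protein-coding genes. Clock (chromosome 5, 76209868 to 76304792, minus strand) gave 17.6, 15.8 and 15.8 TPM, with a mean of 16.4 ± 1.03 TPM. Clock was the steadiest of the 10 genes, with a coefficient of variation of 6.31%, while Arntl was lowest in library 3. A pair was called different where the log2 ratio of TPM + 1 had the same sign in each library, exceeded 2 SD and exceeded 1, and 12 of 19 pairs met this. Arntl against Clock, at 0.29 ± 0.44 on the log2(TPM + 1) scale with opposite sign in library 3, did not. Their paralogs, which can stand in for them in other tissues, were near 0. Npas2 had 2, 7 and 1 counts and Arntl2 had 3, 0 and 3 counts, and the 0 allows up to 0.17 TPM by counting error. Clock over Npas2 came to 4.03 ± 0.14 and Arntl over Arntl2 to 4.25 ± 0.59 (log2 of TPM + 1, which understates ratios to low genes).

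Among the period genes, which encode the repressors that pair with cryptochromes, the order depended on the library. Per1 (chromosome 11, 69095217 to 69109960, plus strand) gave 8.07, 9.08 and 11.9 TPM, with a mean of 9.67 ± 1.96 TPM. Per2 (chromosome 1, 91415982 to 91459324, minus strand) gave 3.37, 5.42 and 1.28 TPM, with a mean of 3.36 ± 2.07 TPM. Per1 was therefore highest, and Per2 lowest, in library 3, where Per2 lay near the limit of 1 TPM. Short transcripts weigh heavily in TPM. The processed transcript Per2-202, of 231 bases, held 11.9, 30.6 and 27.3% of the TPM of Per2. Its share of the expected counts of Per2 was 0.418, 1.37 and 1.17%. Per1-204, of 496 bases, held a mean of 23.8% of the TPM of Per1 and 3.35% of its expected counts. TPM ratios with either gene rest in part on these transcripts. Per3 (chromosome 4, 151003652 to 151044665, minus strand) was the lowest of the 10 genes at 1.32, 1.82 and 1.91 TPM, a mean of 1.68 ± 0.32 TPM, from 73, 84 and 90 counts. Per1 exceeded Per3 by 1.98 ± 0.15 (log2 of TPM + 1), the tightest ratio among the period genes. Per1 exceeded Per2 by 1.05, 0.65 and 2.50 in libraries 1, 2 and 3, a mean of 1.40 ± 0.97 that did not exceed 2 SD. Per2 lay above Per3 in libraries 1 and 2, at 0.91 and 1.19, and below it in library 3, at -0.35.

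The cryptochrome genes encode the main repressors of the activator pair. Cry2 (chromosome 2, 92403646 to 92434043, minus strand) gave 14.2, 14.4 and 4.40 TPM, with a mean of 11.02 ± 5.74 TPM. Cry1 (chromosome 10, 85131700 to 85185064, minus strand) gave 5.99, 4.91 and 2.31 TPM, with a mean of 4.40 ± 1.89 TPM. Both were lowest in library 3, and Cry2 was above Cry1 in each library, with a log2 ratio of Cry1 to Cry2 of -1.07 ± 0.34. Cry2 also exceeded Per2 by 1.44 ± 0.32, while Cry1 against Per1, at -1.03 ± 0.82, did not exceed 2 SD. Without library 2 the ratio of Cry1 to Cry2 was -0.91 and no longer met the rule for pairs. With a pseudocount of 5 TPM, or in CPM of the second gene table, neither pair met it: Cry1 to Cry2 came to -0.71 and -0.91, and Cry2 to Per2 to 0.89 and 0.64.

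Of the REV-ERB genes, Nr1d2 (chromosome 14, 18204054 to 18239127, minus strand) gave 16.2, 18.0 and 7.06 TPM, with a mean of 13.8 ± 5.86 TPM. Nr1d1 (chromosome 11, 98767932 to 98775333, minus strand) gave 8.18, 11.2 and 7.63 TPM, with a mean of 8.99 ± 1.91 TPM. Nr1d2 was the higher of the pair in libraries 1 and 2 and not in library 3, with log2 ratios of Nr1d1 to Nr1d2 of -0.91, -0.64 and 0.10. Arntl, which REV-ERB proteins repress, exceeded Nr1d1 by 1.1 ± 0.46, a difference that no longer met the rule without library 1, at 0.84, or without library 2, at 1.18. It did not meet the rule with a pseudocount of 5 TPM either, at 0.87, or in the second gene table, at 1.01 ± 0.52. Rora, the gene of the activating receptor that competes for the same elements, gave 50.4, 43.2 and 21.03 TPM. It exceeded Nr1d1 by 1.90 ± 0.57, and Rorb, the gene of ROR beta, stayed between 0.17 and 0.42 TPM.

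Dbp (chromosome 7, 45705088 to 45710203, plus strand) gave 12.04, 15.8 and 7.64 TPM, with a mean of 11.8 ± 4.07 TPM. It was highest in library 2 and lowest in library 3. Its relatives with the same binding preference were Tef at 16.4 ± 4.23 TPM and Hlf at 0.70 ± 0.49 TPM, and Nfil3, which encodes a repressor at D-box elements, stood at 2.93 ± 0.67 TPM. Dbp exceeded Nfil3 by 1.67 ± 0.45 and Hlf by 2.90 ± 0.44, and did not differ from Tef by the rule for pairs (-0.46 ± 0.19). In CPM, which is not scaled for length, Dbp to Nfil3 came to 0.98 ± 0.53 in the first gene table and 1.02 ± 0.53 in the second, and met the rule in neither. Dbp to Tef came to -1.99 ± 0.23 in CPM of the first, which met the rule, and to 0.07 ± 0.13 in the second, which did not. The expected counts of Tef, 854, 793 and 466, stood against 117, 139 and 66 counts in the second gene table. That table held fewer counts in all, 6339932, 5775622 and 5056487, which is part of the gap. Arntl, whose transcript is known to peak in antiphase to that of Dbp in many tissues, lay above Dbp in each library by 1.12, 0.48 and 0.74. That is a mean of 0.78 ± 0.32, under the minimum of 1 that the rule asks. In CPM, Arntl to Dbp met the rule, at 2.08 ± 0.34 in the first gene table and 1.75 ± 0.48 in the second.

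**Figure D2:**
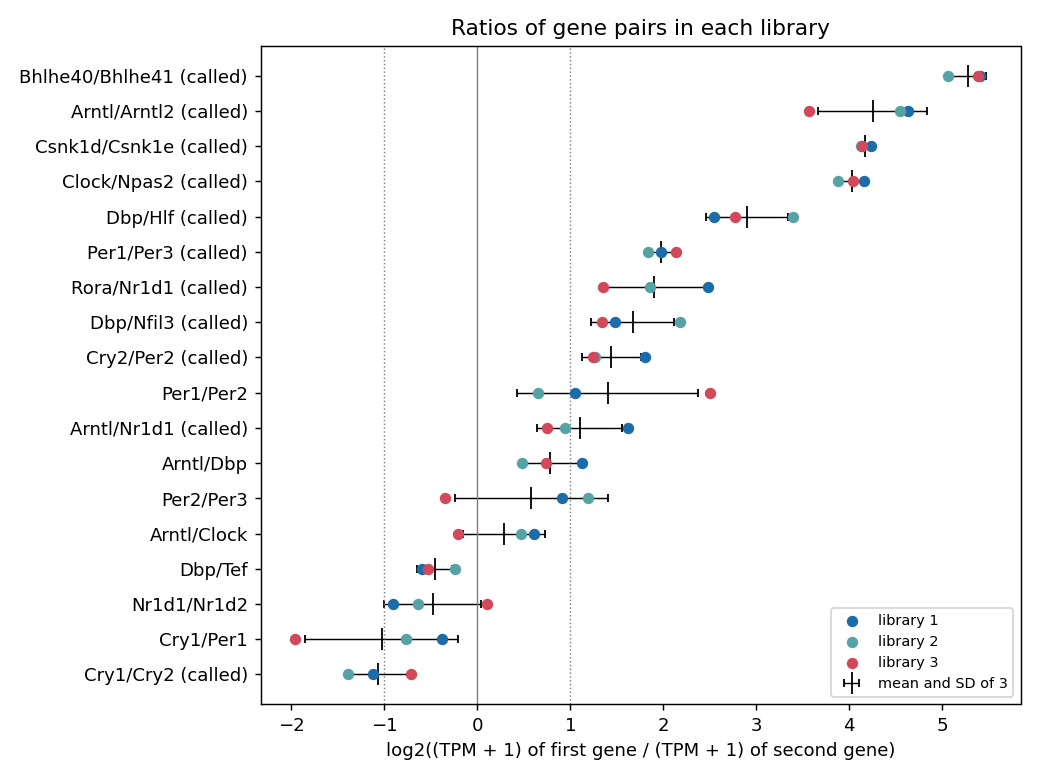
Log2 ratios of TPM + 1 for 18 of the 19 pairs of clock genes, ordered by mean, with 1 point for each library, a black tick and bar for mean and SD, and dotted lines at -1 and 1. Clock over Npas2, Arntl over Arntl2, Bhlhe40 over Bhlhe41 and Csnk1d over Csnk1e have the highest means, from 4.03 to 5.28, and the ratio of Per1 to Per2 spreads most (SD 0.97).

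The 29 other genes of the clock were described as a list, and 24 of them reached 1 TPM in each library. Of the additional repressors of the activator pair, Bhlhe40, which encodes a factor of E-box elements and is also known in activated T cells, stood at 43.5 ± 3.83 TPM, Cipc at 33.2 ± 2.28 TPM and Ciart at 5.50 ± 0.83 TPM. Bhlhe41, the paralog of Bhlhe40, stayed at or under 0.20 TPM, and Bhlhe40 exceeded it by 5.28 ± 0.19 (log2 of TPM + 1). Kinases that phosphorylate period proteins were led by Csnk1d at 102 ± 16.2 TPM, with Csnk1e at 4.73 ± 0.74 TPM, a log2 ratio of 4.17 ± 0.06. Csnk2b, the regulatory subunit of casein kinase II, reached 265 ± 39.4 TPM, Csnk2a1 51.7 ± 11.7 TPM and Gsk3b 9.16 ± 1.72 TPM. Ubiquitin ligase genes of period and cryptochrome turnover were Btrc (31.4 ± 2.98 TPM), Fbxw11 (33.3 ± 16.2 TPM) and Fbxl21 (1.36 ± 0.27 TPM). Nono, an RNA-binding partner of period proteins, reached 271 ± 20 TPM, the highest level on the list, beside Kdm5a (115 ± 12.2 TPM), Timeless (23.8 ± 0.99 TPM) and Sfpq (16.8 ± 2.50 TPM). Other genes tied to the clock were Nampt (18.4 ± 2.73 TPM), Usp2 (2.88 ± 0.53 TPM), Sirt1 (2.87 ± 0.63 TPM) and Wee1 (1.90 ± 0.73 TPM). The expected counts of Csnk2a1, 1529, 1668 and 2145, stood against 41, 48 and 55 counts in the second gene table. Those of Nono, 8013, 6358 and 7342, stood against 1100, 1007 and 1089. The totals were 20942875, 18402479 and 17494966 in the first table and 6339932, 5775622 and 5056487 in the second, which is part of both gaps. Both gaps were wider than that of the totals, far more so for Csnk2a1 than for Nono, so the levels of both depend on how reads were counted.

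The libraries were then compared gene by gene, the only comparison the design allows. Genes entered the test with a mean count of 10 or more, 14877 in all. The spread of the 3 counts, scaled by the TMM factors of edgeR, was set against Poisson sampling in a chi-square test, and 9495 genes had a Benjamini-Hochberg adjusted p under 0.05, which is 63.8%. By the same test 9 of the 10 clock genes differed, all but Per3. Above a mean count of 50, which each of the 10 clock genes passes, 75.9% differed. Of the 10 genes, 7 differed with library 3 lowest, a pattern shared by 29.8% of all genes tested, and 1 differed with library 3 highest, as 24.2% did. The list of 29 had 17 of 26 tested genes past the threshold, 65.4%, with library 3 lowest in 9 and highest in 6, a share near that of all genes. The median log2 ratio of library 3 to the mean of the others was -0.95 over the 10 clock genes, -0.07 over the tested genes of the list of 29 and 0.01 over all genes tested. Of the 26 tested genes of that list, Fbxw11 (-1.55) and Wee1 (-1.01) had the lowest ratios. The 6 that passed the test with library 3 highest were Rorb (0.73), Csnk2a1 (0.50), Csnk2b (0.30), Kdm5a (0.28), Nono (0.12) and Btrc (0.09). Rorb, under 1 TPM in each library, rested on 18, 27 and 36 expected counts, against 0, 2 and 1 counts in the second gene table.

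On counts scaled by TMM, Cry2 was 3.70-fold lower in library 3 than the mean of libraries 1 and 2, from 627, 561 and 151 counts (adjusted p = 3.32e-57 in the chi-square test with edgeR scaling). Per2 was 3.55-fold lower, from 225, 264 and 65 counts (adjusted p = 3.23e-25). Cry1 was 2.87-fold lower, Nr1d2 2.30-fold lower and Dbp 2.11-fold lower. These 5 genes lay more than 1 below on the log2 scale, as did 13.8% of all genes tested and 14.5% of the 9995 genes at a mean of 100 counts or more. Arntl was 1.76-fold lower (1018, 774 and 478 counts, adjusted p = 3.95e-30), and Nr1d1 1.26-fold lower. Per1 moved the other way, 1.39-fold higher in library 3 (321, 366 and 452 counts, adjusted p = 9.22e-09). Clock was 1.03-fold lower in library 3 (adjusted p = 0.0265), with library 3 between the others, and with scaling by total counts its direction turned, at 0.04 on the log2 scale (adjusted p = 0.0824). The p of Clock was 0.635 without library 1 and 0.0694 without library 2, and that of Nr1d1 was 0.573 without library 2, all adjusted. Per3 stood 1.21-fold higher in library 3 without passing the chi-square test (adjusted p = 0.144).

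**Figure D3:**
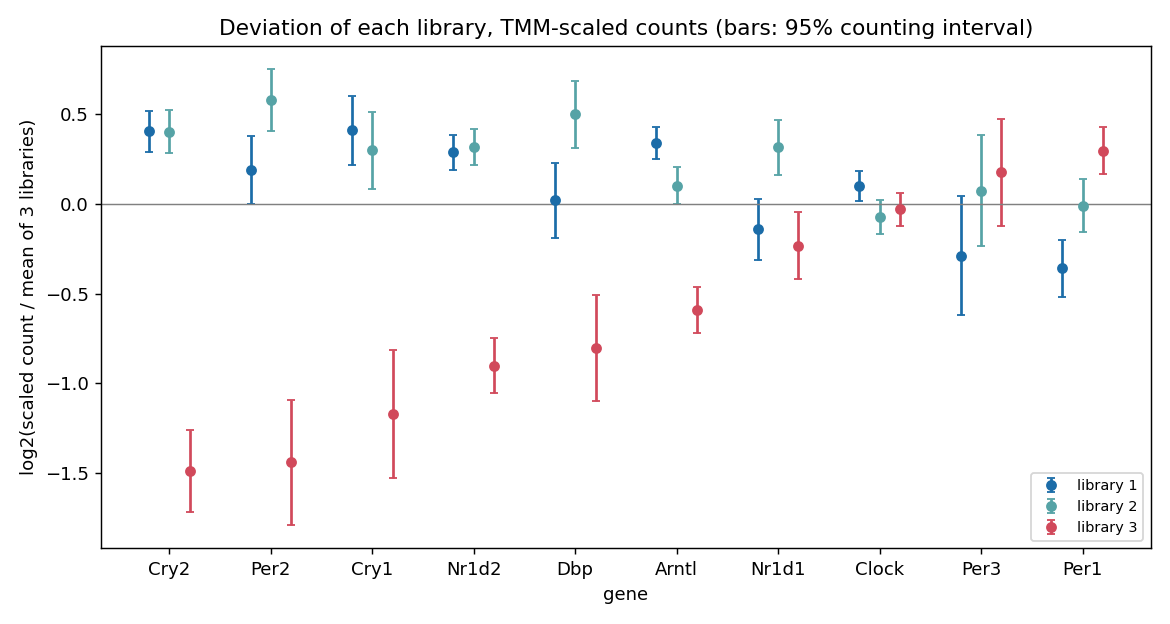
Log2 deviation of each library's TMM-scaled count from the mean of the 3 libraries for the 10 clock genes, with 95% counting intervals as bars and 1 colour for each library. Cry2, Per2, Cry1, Nr1d2, Dbp and Arntl lie below 0 in library 3 and apart from libraries 1 and 2, Clock stays near 0, and Per1 lies above 0 in library 3.

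The spread of all genes bears on these calls. The common dispersion of edgeR over the 3 libraries stood for a coefficient of variation of 0.278 beyond counting. When it was allowed under the null in place of Poisson sampling, 84 of the 14877 genes and none of the 10 clock genes passed the threshold (Cry2 adjusted p = 0.633, Per2 0.629). That dispersion was estimated from the same 3 libraries, so it takes in the departure of library 3, and few calls could remain. At an unadjusted p under 0.05 the Poisson test called 9946 genes. Without library 3, Cry1, Cry2 and Nr1d2 no longer differed, at log2 ratios of library 2 to library 1 of -0.11, -0.00 and 0.03, while Per1, Per2, Nr1d1 and Dbp were higher in library 2 by 0.35, 0.39, 0.46 and 0.48 and Arntl and Clock were lower, at -0.24 and -0.17. With library 3 left out, 6 of the 10 clock genes differed, against 30.2% of all genes.

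Library 3 stood apart from the others along local GC content, taken as the most GC-rich stretch of 200 bases in a gene's most abundant transcript. Over 9305 protein-coding genes at a mean of 100 counts or more, Spearman's rho between it and the log2 ratio of library 3 to the mean of libraries 1 and 2 was -0.54, across genes that share the same libraries. Genes of 70 to 75% had a median log2 ratio of -0.84 and genes of 75 to 80% one of -0.99. Above that the median was higher again, at -0.17 for 80 to 85% and 0.14 for 85 to 90%. Among the clock genes the measure was 78.0% for Cry1, 76.0% for Nr1d2, 72.0% for Cry2, 70.0% for Per1, 69.5% for Per2 and Dbp, 69.0% for Arntl, 68.5% for Per3, 67.5% for Nr1d1 and 57.5% for Clock. Set against the middle 50% of genes of like GC content, Per1 and Per3 lay above, Nr1d1 and Nr1d2 within, and Per2, Cry2, Cry1, Dbp, Arntl and Clock below. The value of Clock is that of the retained intron transcript Clock-206, with 16.7% of its expected counts. Its coding transcript Clock-201, with 34.9%, has 73.0%, where the middle 50% of genes runs from -1.38 to -0.25 and Clock, at -0.05, would lie above. The part of GC content in the levels of library 3 was not tested beyond the removal of its trend. After removal of a lowess trend on this measure, the log2 ratio of library 3 was -1.47 for Per2, -1.19 for Cry2, -0.88 for Cry1, -0.71 for Dbp, -0.51 for Arntl, -0.41 for Nr1d2 and -0.20 for Nr1d1. It was 0.90 for Per1, 0.51 for Per3 and -0.16 for Clock. All 10 clock genes passed the chi-square test then, against 58.9% of all genes, and Per3 did so only there (adjusted p = 0.0119). The list of 29 had 11 past the threshold after this step. The GC value of Per3 is that of the processed transcript Per3-204, with 29.4% of its expected counts. Its coding transcript Per3-201, with 31.0%, has 72.0%. The trend for library 3 was -0.16 at 68.5% and -0.50 at 72.0%, the value of Cry2, so the ratio of Per3 after removal depends on the transcript taken. The same holds for Arntl, whose value is that of Arntl-201. In library 3 Arntl-203, with 64%, held more of the TPM (40.2 against 21.8%). The trend was -0.20 at 69% and 0.03 at 64%, the value of Bhlhe40. The value of Dbp is that of Dbp-204, while its coding transcript Dbp-201, with 18.4% of its expected counts, has 80.5%.

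**Figure D4:**
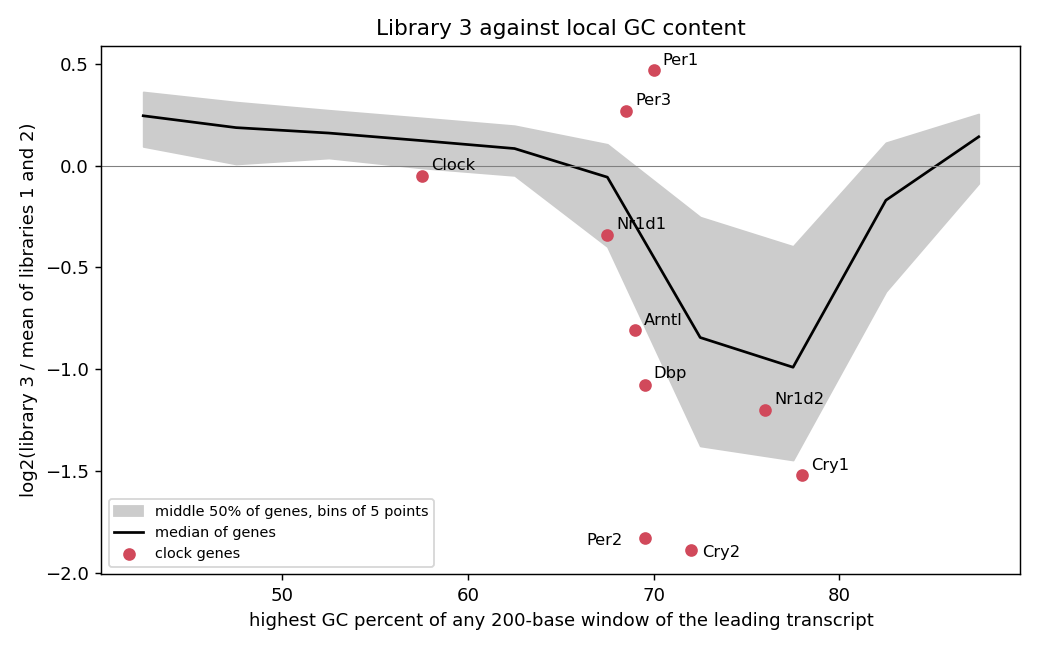
Log2 ratio of library 3 to the mean of libraries 1 and 2 against the GC percent of the most GC-rich stretch of 200 bases, with the median (line) and middle 50% (grey) of 9305 genes in bins of 5 percentage points and the 10 clock genes as points. The median is -0.99 in the bin of 75 to 80% and 0.14 in that of 85 to 90%, Per1 and Per3 lie above the grey band, Nr1d1 and Nr1d2 within it and the other 6 genes below it.

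The transcript tables split each gene over its annotated transcripts, by estimates from short single reads that are uncertain where transcripts overlap. Over the 10 genes the leading transcript held a median of 67.1 ± 11.8% of the gene's TPM. Nr1d1 was nearly all on its coding transcript Nr1d1-201 (95.9 ± 1.67%), and Cry1-201 and Nr1d2-201, both coding, held 87.4 ± 13.6% and 80.9 ± 7.86%. Clock was led by Clock-206, a retained intron transcript of 2473 bases, with 33.7, 31.6 and 36.2% of TPM. Its 3 coding transcripts together held 44.1% of TPM, but 73.5% of the expected counts, since TPM divides by length. Per3 had the lowest coding share, 21.3 ± 9.20% on Per3-201, its only coding transcript, against 32.4 ± 18.2% on the processed transcript Per3-204. Per3-204 held 22, 21.9 and 53.4% in libraries 1, 2 and 3 and led only in library 3. Per3-201 led in library 1 (31.8%) and the retained intron transcript Per3-202 in library 2 (28.4%).

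The split of Arntl in library 3 was unlike that in the others. The coding Arntl-201 held 78.1, 69.6 and 21.8% of the gene's TPM in libraries 1, 2 and 3, and the coding Arntl-203 held 3.41, 6.39 and 40.2%. The retained intron transcript Arntl-202 held 9.91, 14.4 and 27.9%. The GC percent of the first 200 bases was 69.0% for Arntl-201, 63.0% for Arntl-203 and 48.5% for Arntl-202. By the most GC-rich 200 bases the values were 69, 64 and 60%, which lie closer together. The coding Arntl-206, at 45.5% over its first 200 bases, held 5.47, 5.81 and 2.45% of TPM, so its share was lower in library 3. The part of GC content in the split was not tested. In Dbp, the coding Dbp-204 held 77.9, 67.7 and 46.9% while the retained intron transcript Dbp-202 held 9.30, 11.8 and 44.9%. Cry2-201, coding, held 70.7, 68.1 and 55.7%, and the processed transcript Cry2-203 held 12.6, 15 and 24.3%. Both have 71.5% GC over their first 200 bases. These shares were not tested, and libraries 1 and 2 were closer to each other than to library 3 for each of these transcripts. Other coding transcripts set another library apart. Library 1 stood apart for Per2-201 (88.1, 69.4 and 72.7%), Clock-201 (29.3, 21.5 and 18.7%), Per3-201 (31.8, 17.5 and 14.7%) and Nr1d1-201 (97.8, 94.8 and 95%). Library 2 stood apart for Nr1d2-201 (86.5, 71.9 and 84.4%).

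**Figure D5:**
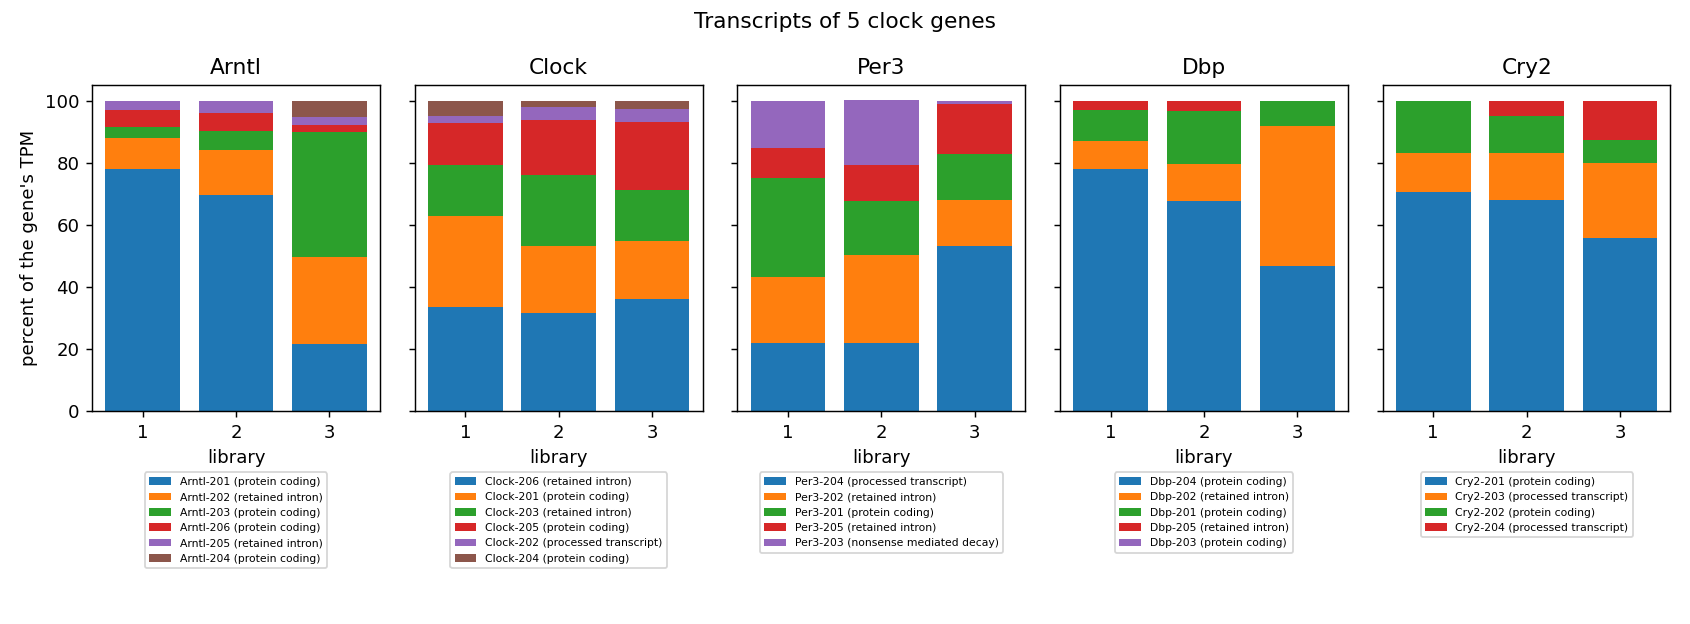
Percent of the gene's TPM on each annotated transcript in libraries 1, 2 and 3 for Arntl, Clock, Per3, Dbp and Cry2, with transcripts stacked and their annotated type in the legend. Arntl-201 holds 78.1% in library 1 and 21.8% in library 3, and Dbp-202 holds 9.30% and 44.9%.

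Reads could be told apart between the clock paralogs. No sequence of 50 bases was shared between the transcripts of any clock gene and those of another clock gene. Nr1d2 shared 5.13% of its 50-base sequences with AC170187.1 on the same strand. Some genes overlap a neighbour on the opposite strand, and the sources used here do not state whether counting used strand. Exons of Dbp overlap those of Sphk2 over 539 bases (18.0% of its exonic bases), and exons of Nr1d1 overlap those of Thra, a thyroid hormone receptor gene, over 263 bases (8.55%). Sphk2 gave 33.1, 34.5 and 36.3 TPM and Thra 4.95, 7.68 and 3.88 TPM. The part of these neighbours in the levels of Dbp and Nr1d1 was not tested. Of the 10 genes, 9 differed in the second gene table, against 56.7% of the 10964 genes tested there. Per3, which passed in neither table, had 37, 43 and 31 counts there, and its log2 ratio of library 3 to the others was -0.21, against 0.27 in the first table.

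Genes whose pattern over the 3 libraries was most like that of a clock gene were looked up among protein-coding genes within a factor of 2 in mean TPM, for the 9 that differed between libraries, by the largest difference in centred log2(TPM + 1). The 3 nearest to Arntl were Bclaf3 (0.012), Ckb (0.016) and Hist1h1c (0.023), and those to Clock were Cnot6 (0.001), Tbc1d8b (0.002) and Hmgxb4 (0.004). For Per1 they were Pde7a (0.005), Aven (0.019) and Rtn4 (0.019), and for Per2 Dclk2 (0.029), Gm20388 (0.048) and Hgh1 (0.062). For Cry1 they were Camkmt (0.016), Rbm15 (0.023) and Mob1b (0.027), and for Cry2 C1qbp (0.013), Aars2 (0.015) and Gm42688 (0.022). Nr1d1 was followed by H2-DMb1 (0.012), Taco1 (0.025) and Mapk8 (0.033), and Nr1d2 by Rad23b (0.010), Rtf1 (0.016) and Wasl (0.019). Nearest to Dbp were 2310009B15Rik (0.013), Gm49322 (0.015) and Rbms1 (0.016). With 3 libraries and 1977 to 3564 candidates for each gene, near matches are plentiful, and the likeness is a description.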

How the data were processed

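PolyA-selected RNA of 1 biological replicate was measured in 3 libraries, numbered by the technical replicate number in the labels. The authors deposited gene and transcript tables on assembly mm10 with GENCODE M21, which give expected counts, TPM and FPKM, per the file headers, and the transcript tables give each transcript's percent of its gene's TPM, per the file headers. A second deposited gene table holds whole-number counts for GENCODE M4. The aligner, the counter and any use of strand were not given in the sources used here. Names and positions came from GENCODE M21.

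From these, expected counts were rounded, genes averaging 10 counts or more were kept, and the chi-square test of Pearson with 2 degrees of freedom, under Poisson sampling, was run across all of them, with library sizes scaled by TMM (edgeR 4.0.16) and Benjamini-Hochberg adjustment. DESeq2 1.42.0 gave alternative size factors. The labels name technical replicates, so p-values measure only the spread between libraries. Counting intervals and floors (3 counts) cover counting error only, since no molecular identifiers are named for these reads. The trend on GC content was a lowess curve with fraction 0.3. The named genes are the 10 clock genes, the list of 29, the pairs' genes, and for each clock gene past the threshold its 3 most similar genes. The genes, lists, pairs and tests were chosen with earlier results of these data known. Some genes of the list of 29 count in its totals but are not reported here by name.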

Additional observations from a re-analysis of the deposited data

How the results depend on the processing

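The 10 clock genes were measured at 1 unknown time of day in 1 biological replicate, and low members such as Per3 rested on under 100 counts a library. No paired analysis was possible because there is 1 group. Size factors of DESeq2, scaling by totals, a filter at 50 counts, no filter, the other gene table and removal of the GC trend left 8 to 10 clock genes past the threshold, against 64.3, 67.7, 75.9, 29.4, 56.7 and 58.9% of all genes in that order, and the common dispersion left 0, with 84 genes in all and 0 of the list of 29. The second gene table called 6218 of 10964 genes, and after the GC trend 11 of the list of 29 passed. Leaving out each library called 4491 to 8022 genes, the lowest count without library 3. Without library 1, 2 and 3 in turn, 51.4, 53.9 and 30.2% of all genes tested were called. In the same order 8, 7 and 6 of the 10 clock genes were called, and 14, 13 and 8 of the 26 tested genes of the list of 29. The direction of Clock turned with total counts (0.04), and the cause was not tested. It turned also for library 3 over library 2 alone (0.04), while library 3 over library 1 gave -0.13 and library 2 over library 1 gave -0.17. At a limit of 5 TPM, 6 clock genes were detected, and with FPKM in place of TPM 8 were. The median level of the clock genes, 10.1 TPM, was 6.53 FPKM, and 14.9 CPM in the first table and 28.7 CPM in the second, which are not scaled for length. Without each library it ran from 8.73 to 11.5 TPM, and 1 to 3 steps between neighbours exceeded the spread, 1 without library 1 or 2. Called pairs numbered 9 to 14 of 19 over all alternatives.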
